A study of Homo sapiens with 6 samples.

Results

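The genes described here are the regulators of autophagy and of its lysosomal switch, mTORC1, in C4-2, an established human cell line of castration-resistant prostate cancer. They were chosen by symbol from the platform's probe table: protein-coding genes of the ATG, ULK, LC3 and GABARAP families, the receptors SQSTM1, NBR1 and OPTN, the MiT-TFE transcription factors, and the Rag, Ragulator, folliculin, GATOR1, TSC, RHEB and mTOR complex genes. This gave 48 genes out of 14812 with a named probeset, of which 11910 are protein-coding. Of the 64 genes in the role groups used below, 16 had no named probeset and are not analysed here. Among them were BECN1, RPTOR, RICTOR, MLST8, WIPI1, WIPI2, NBR1, LAMTOR1, LAMTOR2, LAMTOR3 and all ATG4 proteases.

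Transcript levels came from 6 Affymetrix Human Gene ST arrays, which read many probes along each gene, in 3 groups of 2 biological replicates, all grown in medium with hormones. The groups were cells given the DNA-PKcs inhibitor NU7441 at 1 µM for 24 h, a transient knockdown of DNA-PKcs (96 h after transfection of PRKDC siRNAs), and DMSO-treated controls. The labels do not say whether the controls also received the control siRNA pool or whether the depleted cells received DMSO, so transfection and depletion cannot be told apart. No named probeset for PRKDC was at hand, so the depletion was not checked here. Arrays read bulk RNA, in which fewer expressing cells and less RNA per cell cannot be told apart. The study asked which transcripts depend on DNA-PKcs, the catalytic kinase of a complex that joins broken DNA ends. Of 9 luminal prostate markers 6 were measured, KLK3, KLK2, FOLH1, HOXB13, KRT8 and KRT18, with group means from 85.9 for KRT8 in controls to 1330 for FOLH1 with NU7441, all well above the lowest intensity in the file, 16. NU7441 replicate 1 stood apart from the other arrays: 3797 of its probesets were at that lowest intensity, against 444 to 1471 on the others, and the log2 values of the NU7441 pair correlated at 0.937, against 0.970 for knockdown and 0.988 for control.

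Autophagy encloses cell contents in a double membrane and delivers them to the lysosome. The ULK kinase complex starts the process, lipid transfer proteins and a lipid kinase complex build the membrane, conjugating enzymes attach ATG8-type proteins to it, and receptors such as p62 (SQSTM1) tether cargo to those proteins. On the lysosome surface the Rag GTPases and RHEB switch on mTORC1, which holds back the ULK complex and keeps TFEB and TFE3 out of the nucleus, while GATOR1 and the TSC complex switch mTORC1 off.

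After NU7441, transcripts of the cargo receptors SQSTM1 and OPTN, all 3 GABARAP genes, 4 of 6 Rag and Ragulator genes, folliculin and its partner FNIP1, and both TSC genes were higher than in controls, while ULK1, ATG3, ATG16L1, RHEB and RHEBL1 were lower. Of the 48 genes 19 rose and 5 fell past an adjusted p of 0.05 (39.6% and 10.4%), and 24 did not pass. Over all tested genes 10.8% rose and 22.4% fell in this comparison. Among genes at or above the median brightness 20.7% rose and 24% fell, and 38 of the 48 genes lay in that range, 18 of them higher and 3 lower. The median log2 fold change was 0.34 for the 48 genes and −0.23 for all tested genes. Both NU7441 arrays lay above both control arrays for 26 of the 48 genes (22.7% of all genes) and below for 11 (47.3% of all genes). At an unadjusted p under 0.05, 21 were higher (14.6% of all genes) and 6 lower (31.3% of all genes). Across all genes the fold change depended on brightness: the median was −0.30 at mean log2 intensities of 5 to 6 and 0.21 above 8, against 0.15 for 12 and 0.68 for 7 of the 48 genes in the same ranges. After quantile normalization, which brought the median of all genes to 0.01, 19 were higher and 4 lower, where 14.3% of all genes were higher and 13.8% lower. After median centring 24 were higher and 3 lower, where 20.1% of all genes were higher and 9.54% lower.

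**Figure D1:**
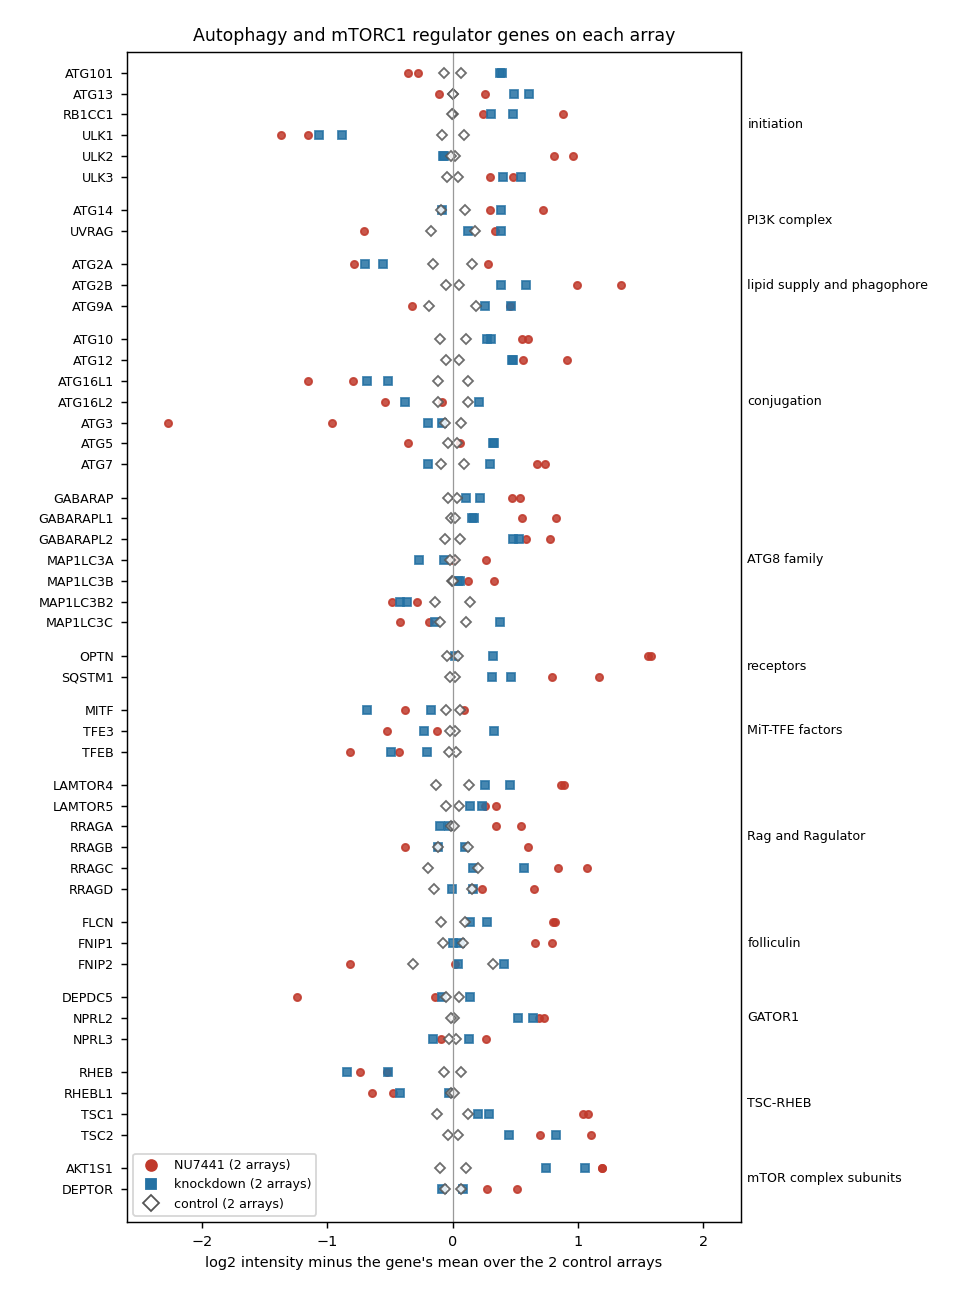
Each row is 1 of the 48 genes, grouped by role. The horizontal axis is the log2 intensity on an array minus the gene's mean over the 2 control arrays, with red circles for NU7441, blue squares for knockdown and open diamonds for control. OPTN on the NU7441 arrays lies far to the right of the other groups, ATG3 on the NU7441 arrays lies far to the left, and for ULK1 both treated groups lie left of the controls.

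The calls rested on both control arrays, which were the least variable. The median SD of log2 values over the 48 genes was 0.18 for NU7441, 0.12 for knockdown and 0.09 for control. With either control array left out fewer passed in both directions, among the 48 genes and over all genes. The median log2 fold change without control replicate 1 was 0.27 for the 48 genes and −0.23 for all tested genes. Without control replicate 2 it was 0.34 and −0.23. Without NU7441 replicate 1 the median log2 fold change was 0.40 for the 48 genes and −0.15 for all tested genes. Without NU7441 replicate 2 it was 0.28 and −0.32. Under all of the alternatives tried 6 stayed called, all of them higher: OPTN, AKT1S1, ATG2B, SQSTM1, LAMTOR4 and GABARAPL2. No called difference changed sign under an alternative. NU7441 and knockdown were each set against the same control arrays.

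Promoters were read for the hexamer that MiT-TFE factors bind. RefSeq promoter windows (GRCh38.p14), from 250 bases before to 50 after a start site, were at hand for 40 of the 48 genes, in 53 windows. The E-box CACGTG, which reads the same on both strands, was found in 9 of the 53 windows (17%), against 8.55% of the 14869 windows of tested genes. By gene, it was in the windows of 9 of 40 (22.5%), against 11% of the 10736 tested genes with a window: in those of 4 of 17 genes that rose with NU7441 (FNIP1, LAMTOR4, RRAGC and TSC2), of 1 of 4 that fell (ATG3), and of 4 of 19 that did not pass (ATG14, NPRL3, RRAGB and ULK3). The longer CLEAR element, the E-box with GT before it and AC after it, was in 1 of the 53 windows, that of RRAGB (0.511% of windows of tested genes). The forkhead element GTAAACA, searched on both strands, was in 0 of the 53 (2.91% of windows of tested genes). The stretches around the E-box are shown for the genes that rose, for ATG3, which fell, and for RRAGB, which holds the CLEAR element, 5′ to 3′ on the gene's strand with the E-box in capitals.
FNIP1, chr5:131797160-131797219, minus strand: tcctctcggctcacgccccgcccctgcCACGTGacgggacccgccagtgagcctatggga
FNIP1, chr5:131797079-131797138, minus strand: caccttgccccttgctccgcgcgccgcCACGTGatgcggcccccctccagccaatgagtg
LAMTOR4, chr7:100148877-100148917, plus strand: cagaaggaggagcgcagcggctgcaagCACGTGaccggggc
RRAGC, chr1:38859852-38859911, minus strand: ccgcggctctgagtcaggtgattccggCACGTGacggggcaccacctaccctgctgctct
TSC2, chr16:2047844-2047903, plus strand: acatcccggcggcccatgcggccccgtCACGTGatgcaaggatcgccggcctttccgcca
ATG3, chr3:112561963-112562007, minus strand: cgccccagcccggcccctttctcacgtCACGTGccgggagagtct
RRAGB, chrX:55717697-55717748, plus strand: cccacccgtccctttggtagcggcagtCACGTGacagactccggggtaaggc
The E-box began 175 and 94 bases before the start site in FNIP1, 112 in RRAGC, 114 in TSC2, 18 in ATG3, 14 in LAMTOR4 and 25 in RRAGB, which holds another E-box 115 bases before its start. These matches are letters in a window and show no binding.

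The ULK kinases, which phosphorylate the first autophagy proteins, moved in opposite directions after NU7441. ULK1 had intensities of 38.0 and 44.1 in NU7441-treated cells and 47.0 and 53.2 in depleted cells, against 104 and 92.5 in controls. Every treated array was below both control arrays, and ULK1 fell 2.40-fold with NU7441 (−1.26 ± 0.23 on the log2 scale, where ± is the standard error with 2 arrays in each group, limma adjusted p = 0.00481). After knockdown ULK1 was at −0.97 ± 0.23 with an adjusted p of 0.0774. ULK2 had 150 and 167 in NU7441-treated cells and 81.3 and 81.7 in depleted cells, against 86.7 and 84.9 in controls. It rose 1.85-fold with NU7441 (0.89 ± 0.19, adjusted p = 0.00923), and the knockdown arrays lay just below the controls (−0.07 ± 0.19, adjusted p = 0.870). ULK3, a less studied kinase of the family, had 50.3 and 56.9 with NU7441 and 59.5 and 53.9 after knockdown, against 42.2 and 39.6 in controls, and passed in neither comparison (adjusted p = 0.218 and 0.296).

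The partners of ULK1 in the initiation complex did not pass against control. RB1CC1, the scaffold also called FIP200, had 195 and 303 with NU7441, against 165 and 165 in controls (0.56 ± 0.21, adjusted p = 0.0681). It passed in 5 of 16 alternatives, with values from 0.24 to 0.88. ATG13, the adaptor that links ULK1 to the complex, was at 0.08 ± 0.24 with NU7441 and at 0.55 ± 0.24 after knockdown, with adjusted p of 0.828 and 0.243. ATG101, which stabilises ATG13, had 279 and 276 in depleted cells and 175 and 166 in NU7441-treated cells, with 203 and 222 in controls between them. The difference between knockdown and NU7441 passed (0.70 ± 0.15, adjusted p = 0.0257), but the call was lost in 9 of 16 alternatives, median centring and the mean of its probesets among them, with values from 0.48 to 0.75.

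For membrane supply the clearest value was that of ATG2B, a lipid transfer protein. It had 215 and 274 in NU7441-treated cells and 141 and 162 in depleted cells, against 112 and 104 in controls. With NU7441 it rose 2.24-fold (1.17 ± 0.19, adjusted p = 0.00298), and the groups did not overlap. Its paralog ATG2A was dimmer and scattered, with 22.6 and 47.4 under NU7441 and 24.1 and 26.6 after knockdown, against 43.6 and 35.1 in controls (−0.25 ± 0.33, adjusted p = 0.579 for NU7441). ATG9A, the scramblase of autophagy vesicles, and ATG14 and UVRAG, alternative subunits of the lipid kinase complex, did not pass with NU7441 (0.07 ± 0.29, 0.51 ± 0.25 and −0.18 ± 0.34).

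The conjugation enzymes split. ATG3, the E2-like enzyme that transfers ATG8 proteins to lipid, had 91.4 and 226 in NU7441-treated cells and 415 and 384 in depleted cells, against 421 and 461 in controls. The NU7441 arrays were the lowest, and they also lay far apart from each other. ATG3 fell 3.07-fold with NU7441 (−1.62 ± 0.33, adjusted p = 0.00739). The lower value was on NU7441 replicate 1, and the fall was −0.96 without that array and −2.27 without the other. ATG3 was at −0.14 ± 0.33 after knockdown (adjusted p = 0.853), and was higher in knockdown than in NU7441 (1.48 ± 0.33, adjusted p = 0.0288). ATG7, the E1-like enzyme that activates ATG8 proteins and ATG12, had 164 and 171 with NU7441 and 126 and 89.4 after knockdown, against 110 and 96.3 in controls, and rose 1.63-fold with NU7441 (0.70 ± 0.22, adjusted p = 0.0339). ATG12, the ubiquitin-like protein joined to ATG5, had 303 and 239 with NU7441 and 224 and 225 after knockdown, against 168 and 156 in controls, and rose 1.67-fold with NU7441 (0.74 ± 0.17, adjusted p = 0.0116).

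ATG16L1, which places the ATG12–ATG5 conjugate on the membrane, had 16.2 and 20.7 with NU7441 and 22.3 and 25.1 after knockdown, against 33.0 and 39.0 in controls. It fell with NU7441 (−0.97 ± 0.21, adjusted p = 0.00881), and its treated values were close to the lowest intensity in the file, 16, so that its fold change may be understated. The fall was smaller after quantile normalization (−0.69) and median centring (−0.65), so it may also be overstated. ATG5, ATG10, the E2-like enzyme for ATG12, and ATG16L2 did not pass (−0.15 ± 0.20, 0.58 ± 0.23 and −0.31 ± 0.27 with NU7441). ATG10 passed in 6 of 16 alternatives, with values from 0.47 to 0.90.

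Among the ATG8 proteins, which coat the autophagosome membrane, the GABARAP branch rose with NU7441 and no LC3 gene passed. GABARAP had 1152 and 1207 with NU7441 and 893 and 965 after knockdown, against 851 and 811 in controls (0.51 ± 0.09 with NU7441, adjusted p = 0.0036). GABARAPL2 had 646 and 738 with NU7441 and 601 and 622 after knockdown, against 414 and 450 in controls (0.68 ± 0.11 with NU7441, adjusted p = 0.00338). All 4 treated arrays of GABARAPL2 were above both controls, and its knockdown value was 0.50 ± 0.11 with an adjusted p of 0.0708. GABARAPL1, at 54.8 and 45.5 with NU7441 and 35.0 and 34.5 after knockdown, against 30.7 and 31.3 in controls, passed narrowly with NU7441 (0.69 ± 0.23, adjusted p = 0.0469) and lost the call in 9 of 14 alternatives, with values from 0.55 to 1.12.

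MAP1LC3B, the LC3 form most used as an autophagy marker, had 47.0 and 40.8 with NU7441 and 38.6 and 39.1 after knockdown, against 37.3 and 37.6 in controls. Its NU7441 difference of 0.22 ± 0.23 did not pass (adjusted p = 0.473). MAP1LC3A, MAP1LC3B2 and MAP1LC3C lay between −0.38 and 0.13 with NU7441, with group means from 21.4 to 35.5. MAP1LC3B and MAP1LC3B2 are nearly identical copies, so their probes may read both. The branches were not tested against each other.

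The cargo receptors SQSTM1 and OPTN rose with NU7441. OPTN, optineurin, a receptor for damaged mitochondria and bacteria, had 109.5 and 107.8 in NU7441-treated cells and 37.1 and 45.7 in depleted cells, against 35.5 and 37.8 in controls. It rose 2.97-fold with NU7441 (1.57 ± 0.23, adjusted p = 0.00206), the largest rise among the 48 genes. The knockdown arrays overlapped the controls (0.17 ± 0.23, adjusted p = 0.728), and knockdown was lower than NU7441 (−1.40 ± 0.23, adjusted p = 0.0103). SQSTM1, which encodes p62, had 569 and 737 with NU7441 and 408 and 452 after knockdown, against 333 and 324 in controls. It rose 1.97-fold with NU7441 (0.98 ± 0.14, adjusted p = 0.00202), stood at 0.39 ± 0.14 after knockdown (adjusted p = 0.192), and was lower in knockdown than in NU7441 (−0.59 ± 0.14, adjusted p = 0.0375).

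**Figure D2:**
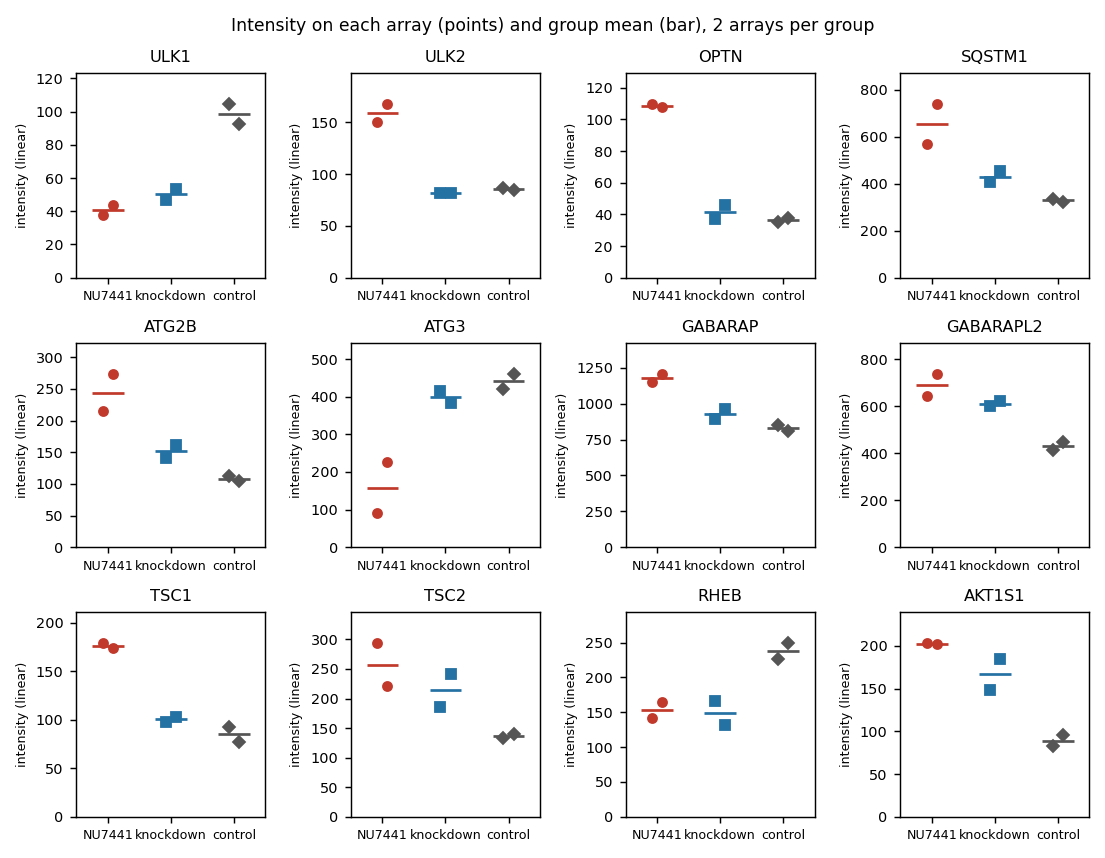
Linear intensity on each array for 12 of the genes, with NU7441 (circles), knockdown (squares) and control (diamonds) from left to right, and a bar at each group's mean of 2 arrays. OPTN, ULK2, TSC1 and SQSTM1 are highest with NU7441 and near or moderately above control after knockdown, whereas ULK1 and RHEB are below control in both treated groups.

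No gene for a MiT-TFE factor passed. TFEB, the factor that drives lysosome and autophagy genes, had 92.0 and 70.0 with NU7441 and 107 and 88.0 after knockdown, against 126 and 121 in controls. All 4 treated arrays were below both controls, yet NU7441 against control missed the threshold (−0.62 ± 0.22, adjusted p = 0.0551). It passed in 2 of 16 alternatives, the test of brighter genes alone and the one lacking NU7441 replicate 1, and it was at −0.31 with an adjusted p of 0.343 under median centring. TFE3 and MITF were at −0.33 ± 0.27 and −0.15 ± 0.27 with NU7441.

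The 6 measured genes that bring mTORC1 to the lysosome had fold changes above 0 with NU7441, and 4 passed. LAMTOR1, LAMTOR2 and LAMTOR3 had no named probeset. RRAGC, a Rag GTPase, had 171 and 146 with NU7441 and 91.2 and 121 after knockdown, against 70.9 and 93.6 in controls (0.96 ± 0.23 with NU7441, adjusted p = 0.0143). LAMTOR4, a Ragulator subunit that anchors the Rags, had 537 and 543 with NU7441 and 405 and 352 after knockdown, against 269 and 322 in controls. It rose 1.84-fold with NU7441 (0.88 ± 0.14, adjusted p = 0.00269). RRAGA had 336 and 292 with NU7441 and 226 and 214 after knockdown, against 228 and 232 in controls (0.45 ± 0.15 with NU7441, adjusted p = 0.0437).

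LAMTOR5, another Ragulator subunit, had 979 and 918 with NU7441 and 902 and 849 after knockdown, against 742 and 797 in controls (0.30 ± 0.09 with NU7441, adjusted p = 0.0327). RRAGA lost the call in 10 of 16 alternatives, with values from 0.34 to 0.76, and LAMTOR5 in 11 of 16, with values from 0.21 to 0.62. RRAGB and RRAGD did not pass (0.11 ± 0.32 and 0.44 ± 0.26). RRAGB had 55.3 and 109 with NU7441, against 66.1 and 78.1 in controls. Its value ran from −0.38 to 0.60 over the alternatives.

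Folliculin, which activates RRAGC and RRAGD, rose with its partner FNIP1. FLCN had 95.2 and 96.4 with NU7441 and 60.1 and 66.2 after knockdown, against 58.4 and 51.1 in controls (0.81 ± 0.22 with NU7441, adjusted p = 0.0206). FNIP1 had 260 and 237 with NU7441 and 156 and 150 after knockdown, against 159 and 142 in controls. It rose 1.65-fold with NU7441 (0.73 ± 0.16, adjusted p = 0.0112) and was lower in knockdown than in NU7441 (−0.70 ± 0.16, adjusted p = 0.0341). FNIP2 had 41.5 and 74.4 with NU7441 and 75.5 and 97.4 after knockdown, against 91.6 and 58.8 in controls, and the groups overlapped.

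Of GATOR1, which turns the Rag GTPases off, NPRL2 had 311 and 318 with NU7441 and 300 and 276 after knockdown, against 194 and 191 in controls. It rose 1.63-fold with NU7441 (0.71 ± 0.14, adjusted p = 0.00653), and the knockdown value of 0.58 ± 0.14 had an adjusted p of 0.0805. NPRL3 and DEPDC5 did not pass (0.09 ± 0.22 and −0.69 ± 0.34 with NU7441), and DEPDC5 was low on NU7441 replicate 1 alone, with 29.0 and 62.2 under NU7441 and 75.5 and 64.8 after knockdown, against 71.1 and 66.3 in controls.

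The TSC complex turns off RHEB, the small GTPase that activates mTORC1, and its genes and RHEB moved in opposite directions with NU7441. TSC1 had 179 and 174 with NU7441 and 97.3 and 103 after knockdown, against 92.3 and 77.5 in controls. It rose 2.09-fold with NU7441 (1.06 ± 0.19, adjusted p = 0.00464) and was lower in knockdown than in NU7441 (−0.81 ± 0.19, adjusted p = 0.0340). TSC2 had 293 and 220 with NU7441 and 186 and 241 after knockdown, against 132 and 140 in controls, and rose 1.87-fold with NU7441 (0.90 ± 0.20, adjusted p = 0.0102).

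RHEB had 142 and 165 with NU7441 and 166 and 132 after knockdown, against 227 and 249 in controls. Every treated array was below both controls. RHEB fell with NU7441 (−0.63 ± 0.18, adjusted p = 0.0281), not past the threshold with median centring, and stood at −0.68 ± 0.18 after knockdown (adjusted p = 0.0976). RHEBL1, a relative of RHEB, had 16 and 18.0 with NU7441 and 24.5 and 18.6 after knockdown, against 24.8 and 25.2 in controls. Its fall with NU7441 (−0.56 ± 0.18, adjusted p = 0.0379) sat at the lowest intensities of the file and was lost in 8 of 14 alternatives, quantile normalization and median centring among them, with values from −2.53 to −0.24.

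Of the mTOR complex genes in the set, the inhibitory subunits AKT1S1 and DEPTOR were measured. AKT1S1, which encodes PRAS40, had 203 and 202 with NU7441 and 149 and 185 after knockdown, against 82.6 and 95.5 in controls. All 4 treated arrays were above both controls. It rose 2.28-fold with NU7441 (1.19 ± 0.19, adjusted p = 0.00274), and after knockdown it was at 0.90 ± 0.19, the highest value of the 48 genes there, with an adjusted p of 0.0627. DEPTOR had 83.3 and 98.5 with NU7441 and 65.0 and 72.9 after knockdown, against 72.2 and 66.0 in controls, and did not pass (0.39 ± 0.22, adjusted p = 0.189). MTOR, the kinase itself, which the symbol rule left out, had 309 and 265 with NU7441 and 224 and 244 after knockdown, against 193 and 177 in controls, and rose with NU7441 (0.63 ± 0.16, adjusted p = 0.0159). MAPKAP1, a subunit of mTORC2, did not pass (0.23 ± 0.12, adjusted p = 0.176).

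**Figure D3:**
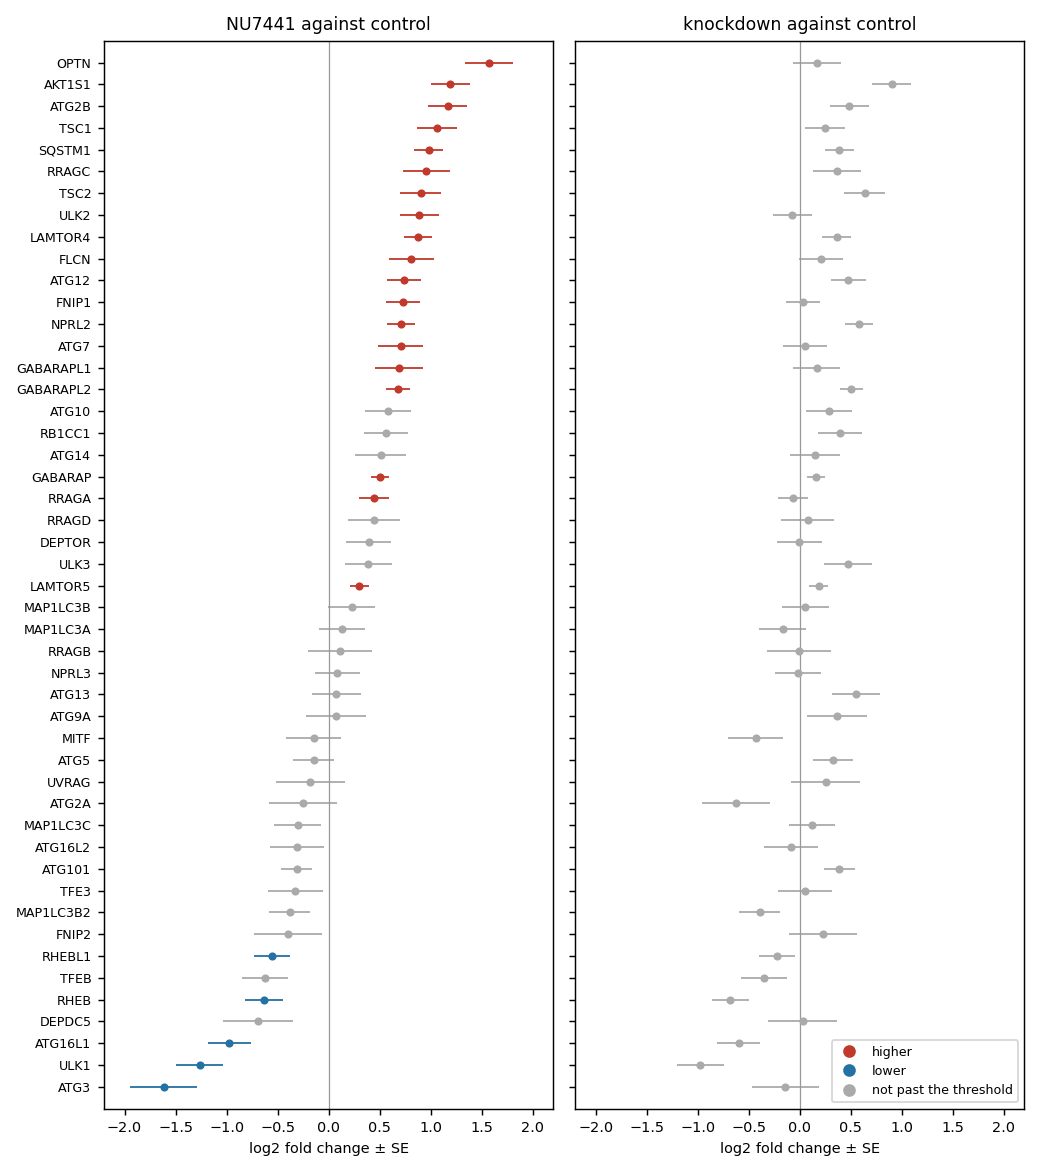
Log2 fold changes with limma's moderated standard errors (2 arrays per group) for the 48 genes, NU7441 against control on the left and knockdown against control on the right, both in the order of the NU7441 values. Red and blue points passed an adjusted p of 0.05 as higher and lower, and grey points did not. With NU7441 19 points are red and 5 blue, and after knockdown all are grey.

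After knockdown 0 of the 48 genes passed limma's test with all arrays in the model, where 0.284% of all genes rose and 0.486% fell. At an unadjusted p under 0.05, 10 were higher (6.68% of all genes) and 3 lower (12.9% of all genes). Both knockdown arrays lay above both controls for 21 of the 48 genes (23.4% of all genes) and below for 12 (38.2% of all genes). The largest values were those of AKT1S1, TSC2 and NPRL2 on the higher side (0.90, 0.64 and 0.58) and of ULK1, RHEB and ATG2A on the lower side (−0.97, −0.68 and −0.63). The median log2 fold change was 0.15 for the 48 genes and −0.09 for all tested genes. That count depended on which arrays set the spread. With only the knockdown and control arrays in the model 11 were higher and 4 lower (6.89% and 12.3% of all genes). With array weights by group the counts were 8 and 3 (6% and 12% of all genes). In the limma fit of those 4 arrays AKT1S1 and GABARAPL2 passed as higher, as did NPRL2 (adjusted p = 0.0032), and ULK1 and RHEB passed as lower (adjusted p = 0.00152 and 0.00329). With the knockdown and control arrays alone the whole comparison called 1021 genes higher and 1822 lower, against 42 and 72 with all arrays.

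Knockdown was also set against NU7441 directly. Of the 48 genes 2 were higher in depleted cells (5.83% of all genes) and 6 lower (2.84% of all genes). Both knockdown arrays lay above both NU7441 arrays for 10 of the 48 (32.9% of all genes) and below for 23 (19.6% of all genes). The higher genes were ATG3 and ATG101. The lower genes were OPTN, ULK2, TSC1, FNIP1, SQSTM1 and GABARAP (−0.35 ± 0.09, adjusted p = 0.040). Depletion lasted 96 h and inhibition 24 h, so time and treatment cannot be told apart here. These calls were lost with either knockdown array left out, and mostly lost with either control array left out. Calls over all genes dropped steeply in the same fits, which leave 1 array in a group. The median log2 fold change of the 48 genes was −0.17 with all arrays. It was −0.18 without knockdown replicate 1 and −0.19 without knockdown replicate 2. For ULK1, RHEB, NPRL2, GABARAPL2 and AKT1S1 the difference between the treatments was −0.29 to 0.29 and did not pass, which does not show that they acted alike.

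**Figure D4:**
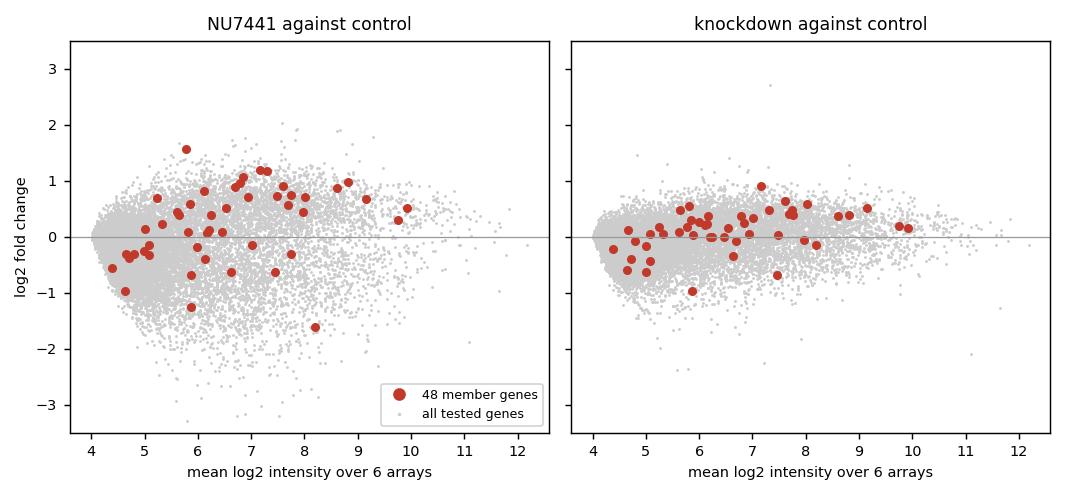
Log2 fold change against mean log2 intensity over the 6 arrays for all 14812 tested genes (grey) and the 48 genes described here (red), with NU7441 against control on the left and knockdown against control on the right. The red points lie mostly above 0 at higher intensities in the left panel, where the median of 7 of them above 8 was 0.68 against 0.21 for all genes in that range.

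Other genes of the same pathways, listed from textbook roles with earlier results of these data known, showed both directions with NU7441. Their counts are therefore not independent support. With all arrays and no further scaling, 10.8% of all genes were higher and 22.4% lower. Among genes at or above the median brightness 20.7% were higher and 24% lower. That range held 24 of the 27, 21 of the 22 and 15 of the 16 genes of the lists below, in turn. Of 27 further autophagy genes 10 rose and 4 fell, with a median log2 fold change of 0.18. With median centring 12 rose and 0 fell, where 20.1% of all genes rose and 9.54% fell. Fewer passed with either control array left out, in this list and over all genes. The median was then 0.08 without control replicate 1 and 0.19 without control replicate 2. TP53INP1, a stress protein that binds ATG8 proteins, was the highest of them (1.90 ± 0.13), and PINK1, the kinase that marks damaged mitochondria, rose by 1.07 ± 0.26. EI24, an endoplasmic reticulum protein, had 111 and 335 with NU7441, against 446 and 475 in controls (−1.25 ± 0.39, adjusted p = 0.0344). Its fall was −0.46 without NU7441 replicate 1 and −2.05 without NU7441 replicate 2. WDR45, a lipid-binding relative of the WIPI proteins, fell (−0.93 ± 0.27). The list also holds further cargo receptors: BNIP3L (1.02 ± 0.13), BNIP3 (0.66 ± 0.14), TEX264 (0.53 ± 0.18) and TAX1BP1 (0.35 ± 0.10) rose, while CALCOCO2 (−0.07 ± 0.18), FUNDC1 (−0.19 ± 0.23) and TOLLIP (−0.27 ± 0.26) did not pass. NCOA4, the ferritin receptor, had 29.9 and 134 with NU7441, against 137 and 133 in controls, and did not pass (−1.09 ± 0.53, adjusted p = 0.139).

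Of 22 further mTORC1 pathway genes, MTOR among them, 8 rose and 3 fell, with a median of 0.33. Fewer passed with either control array left out, in this list and over all genes. The median was then 0.35 without control replicate 1 and 0.30 without control replicate 2. GRB10, an adaptor that dampens insulin signalling, and WDR59 of GATOR2, which opposes GATOR1, rose most (1.72 ± 0.20 and 1.28 ± 0.24). LARS1, the leucyl-tRNA synthetase and a reported leucine sensor, and TTI1, which helps assemble mTOR, fell most (−1.35 ± 0.21 and −1.12 ± 0.27). Of 29 listed lysosome genes known as TFEB targets 16 were measured. Of these 11 rose with NU7441 and 0 fell past limma's threshold (1 lower at an unadjusted p under 0.05), with a median of 0.87. Fewer rose past it with either control array left out, with medians of 0.92 without control replicate 1 and 0.81 without control replicate 2. With array weights by group or the replicate block 1 fell, where 20.8% of all genes did. Quantile normalization without dim genes also gave 1, where 23.8% of the genes tested there fell. ASAH1 had 40.4 and 207 with NU7441, against 256 and 266 in controls, and did not pass (−1.51 ± 0.57, adjusted p = 0.0658). Its value was −0.34 without NU7441 replicate 1 and −2.69 without NU7441 replicate 2. GRN, progranulin, and NEU1, a sialidase, were the highest (1.76 ± 0.22 and 1.64 ± 0.20), and CD63 and CTSA the lowest of those that rose (0.68 ± 0.07 and 0.78 ± 0.21). After knockdown 0 genes of these 3 lists passed limma's test, with 4, 5 and 9 higher and 1, 1 and 1 lower at an unadjusted p under 0.05, where 6.68% of all genes were higher and 12.9% lower.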

How the data were processed

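The authors deposited 1 linear intensity per probeset and array for 6 arrays. Trizol extraction and biotin labelling of amplified cDNA are the steps named per the labels' protocols. How probes were summarised and normalized is not given in the sources used here. Of 44629 probesets 15835 carried 1 gene symbol in the platform table, 0 several, and 28794 were unnamed here. The brightest probeset stood for each gene, leaving 14812 genes. Intensities were log2 transformed without further scaling, and no value lay below 16, which may be an added offset or a floor. The number of arrays limits the precision.

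limma 3.58.1 in R 4.3.3 fitted 1 linear model over all 6 arrays, with eBayes(trend = TRUE) and p-values adjusted by Benjamini-Hochberg across the 14812 genes; tests were two-sided and ± values are moderated standard errors. All groups share 1 spread in it. The procedure was tested on simulated data, in which all arrays of a gene shared 1 spread, so groups that differ in spread were not simulated. With spreads drawn from the raw per-gene SDs it recovered fewer changed genes than the bar set for it, so the simulation was redrawn from limma's moderated spreads, where it passed; the fit itself was not altered. Genes named with values on every array were those past the threshold in any comparison, the 3 highest and 3 lowest in each, and ULK1, MAP1LC3B, SQSTM1 and TFEB (RPTOR is not analysed here); further genes are given for their role and were named after their values were seen. Other lists name the 2 highest and 2 lowest genes past the threshold. MTOR, MAPKAP1, ASAH1 and the further cargo receptors were named after their values were seen, and the alternatives for these lists were added then. The gene set and the lists were chosen with earlier results of these data known. The CLEAR element was added to the motif search later. Alternatives covered scaling, dim genes, the trend, the arrays fitted, array weights, probeset choice, the offset, a replicate block and each array left out. The replicate numbers do not say whether same-numbered arrays were prepared together, and the main fit did not pair them. Deviations of same-numbered arrays over all probesets correlated at −0.06 to −0.00 between groups. This shows no shared shift but cannot settle the pairing.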

Additional observations from a re-analysis of the deposited data

How the results depend on the processing

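The number of the 48 genes past the threshold held within 1.5 times of the reported count except as follows, and the cause was not tested. For NU7441 against control 5 were lower (22.4% of all genes). With median centring 3 were lower (9.54% of all genes). Quantile normalization with no dim genes, an alternative chosen after seeing the data, also gave 3 (23.8% of the genes tested there). Only 38 of the 48 genes were tested in it. ATG16L1 and RHEBL1, lower in the main fit, were not among them, and ATG3, ULK1 and RHEB stayed lower. For knockdown against control, none was called with all arrays. After quantile normalization 1 was higher (0.493% of all genes), and with median centring 3 (2.33%). With only the compared groups 11 were higher and 4 lower (6.89% and 12.3% of all genes). With array weights by group 8 were higher and 3 lower (6% and 12%). Quantile normalization without dim genes gave 2 higher and 1 lower (2.08% and 2.43% of the genes tested there). For knockdown against NU7441, 2 genes were higher and 6 lower (5.83% and 2.84% of all genes). The higher count was 1 with median centring (4.19% of all genes), array weights (4.91%), the mean of probesets (5.83%) and the offset of 16 taken off (4.48%). It was 0 without the trend (4%) and with only the compared groups (1.92%). The lower count was 10 with median centring (6.13% of all genes) and with quantile normalization and no dim genes (10.9%). It was 3 without the trend (1.54%), 1 with only the compared groups (1.26%) and 3 with array weights (1.67%).

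With the replicate number as a block, NU7441 against control gave 16 higher and 5 lower (9.5% and 20.8% of all genes). Knockdown against control gave 0 and 0 (0.135% and 0.115%). Knockdown against NU7441 gave 2 higher and 3 lower (4.98% and 1.94%). Leaving out each array in turn gave 7 to 21 higher and 0 to 9 lower for NU7441 against control, 0 to 11 and 0 to 4 for knockdown against control, and 0 to 7 and 0 to 15 for knockdown against NU7441. In such a fit 1 array stands for its group and is assumed to vary like the others. Of all genes called in NU7441 against control, the share that was lower was 67.4% as deposited, 49.0% after quantile normalization and 32.1% after median centring. Signal near the lowest intensity of 16 limits what RHEBL1 and ATG16L1 can show.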
